A study of Mustela putorius furo with 2 samples.

Results

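Synaptic adhesion molecules are the membrane proteins that hold both sides of a synapse together and help to decide which partners connect. The genes described here are the rows of both count matrices whose symbol names a neurexin, a neuroligin, an LRRTM, LRFN or SLITRK protein, a netrin-G ligand of the LRRC4 group, a teneurin, a latrophilin (ADGRL1 to ADGRL3), a numbered contactin or a CNTNAP protein. The rule found 35 genes of 28156 features, of which 14296 carry a symbol. They comprise 6 SLITRK genes, 5 contactins, 5 LRFN genes, 4 LRRTM genes, 3 genes each of the neuroligins, LRRC4 group, teneurins and latrophilins, 2 CNTNAP genes and 1 neurexin, NRXN2.

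The data are single-nucleus RNA profiles of frozen somatosensory cortex of ferrets (Mustela putorius furo). Both samples are labelled DCX knockout, though the series text calls the gene knocked down. DCX is the gene of doublecortin, which binds microtubules in migrating neurons. 1 library came from tissue labelled upper band of cortex and 1 from tissue labelled deeper band of cortex. Age, sex and number of animals are not in the labels used, and tissue without the DCX change was not analysed here, so nothing below measures an effect of DCX. With 1 library per band there is no replicate check and no test was made, and a difference of band cannot be told apart from one of library preparation or animal.

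DCX itself, the targeted gene, had 4111 UMIs (unique molecular identifiers, each standing for 1 captured RNA molecule) in the library of the upper band and 4121 in the other, or 78.5 and 77.2 CPM, the number of UMIs of a gene per 1000000 UMIs of the library or class. Both libraries carry the same genotype label, so this level checks no group. After removal of shallow barcodes and called doublets, 6261 nuclei with 52352192 UMIs and 8150 nuclei with 53363232 UMIs remained, and 18 barcode sequences occurred in both. Clusters were named from marker genes, none of them among the 35, as excitatory neuron-like (3184 and 3454 nuclei), inhibitory neuron-like (1022 and 771), astrocyte-like (388 and 806), oligodendrocyte-like (926 and 2524), oligodendrocyte precursor-like (125 and 193), microglia-like (47 and 66) and vascular-like (262 and 153), with 307 and 183 nuclei unnamed. Excitatory nuclei with deep-layer markers made up 29.1% of the excitatory nuclei in the library labelled upper band and 7.53% in the library labelled deeper band, and those with upper-layer markers 48.6% and 80.3%. The names upper band and deeper band follow the labels throughout. Each pair of values below gives the upper-band library first, and all intervals are 95% intervals that cover counting error only.

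Neurexins sit on the presynaptic membrane and bind neuroligins, LRRTM proteins and secreted adaptors across the cleft. LRFN, SLITRK and LRRC4 proteins are leucine-rich repeat proteins of the postsynaptic side, where SLITRK and LRFN proteins bind receptor phosphatases of the axon and LRRC4 proteins bind netrin-G proteins or a receptor phosphatase. Teneurins pair with latrophilins, and contactins are anchored to the membrane by a lipid tail and work with CNTNAP proteins along axons and at nodes of the myelinated fibre.

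Of the 35 genes, 32 had at least 50 UMIs over both libraries and were assigned to a class where that class held their highest CPM in both libraries. LRFN4 had no UMI, SLITRK6 had 5 UMIs in the upper-band library and none in the deeper-band library, and LRRTM1 had 17 and 22. The oligodendrocyte precursor-like nuclei held the highest level of 7 of the 32 genes (21.9%, where 5.07% of all genes passing the same minimum did so): NRXN2, LRRTM2, LRRTM3, NLGN2, SLITRK5, TENM3 and ADGRL3. Of these, LRRTM2, NLGN2 and SLITRK5 rest on 8 or fewer precursor UMIs in each library, while the other 4 rest on 303 to 697. Inhibitory nuclei held 5 of the 32 (15.6%, background 5.88%), namely CNTN4, CNTNAP5, SLITRK4, TENM2 and TENM4. Excitatory nuclei held 3 (9.38%, background 7.49%), namely CNTN3, LRFN2 and LRFN5.

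Astrocyte-like nuclei held 2 of the 32, ADGRL1 and SLITRK2 (background 7.48%), oligodendrocyte-like nuclei 1, CNTN2 (background 7.82%), vascular-like nuclei 1, ADGRL2 (background 6.89%), and microglia-like nuclei none (background 11.3%). The class of highest level differed between the libraries for the other 13. The shallow microglia-like and vascular-like nuclei had medians of 1268 and 1135 and of 1145.5 and 1109 UMIs per nucleus, against 10750.5 and 10404 in excitatory nuclei. When these classes were left out, a choice made after seeing the data, the precursor-like nuclei held 9 of 32 (background 9.27%), the inhibitory nuclei 6 (background 11%), the excitatory nuclei 3 (background 13.7%), the astrocyte-like nuclei 2 (background 13.7%) and the oligodendrocyte-like nuclei 1 (background 16.9%). CNTN2 and NRXN2 were the 2 members at least 2 times above the second class in both libraries, where 2.21% of all genes had this in oligodendrocyte-like and 1.37% in precursor-like nuclei. No member did so in excitatory (background 1.4%), inhibitory (1.2%), astrocyte-like (2.56%), microglia-like (3.53%) or vascular-like nuclei (1.79%). Summed over the 35 genes, the level was 8135 and 8526 CPM in excitatory, 10107 and 11078 in inhibitory, 9879 and 9130 in precursor-like, 4285 and 4071 in astrocyte-like and 2190 and 2060 in oligodendrocyte-like nuclei.

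**Figure D1:**
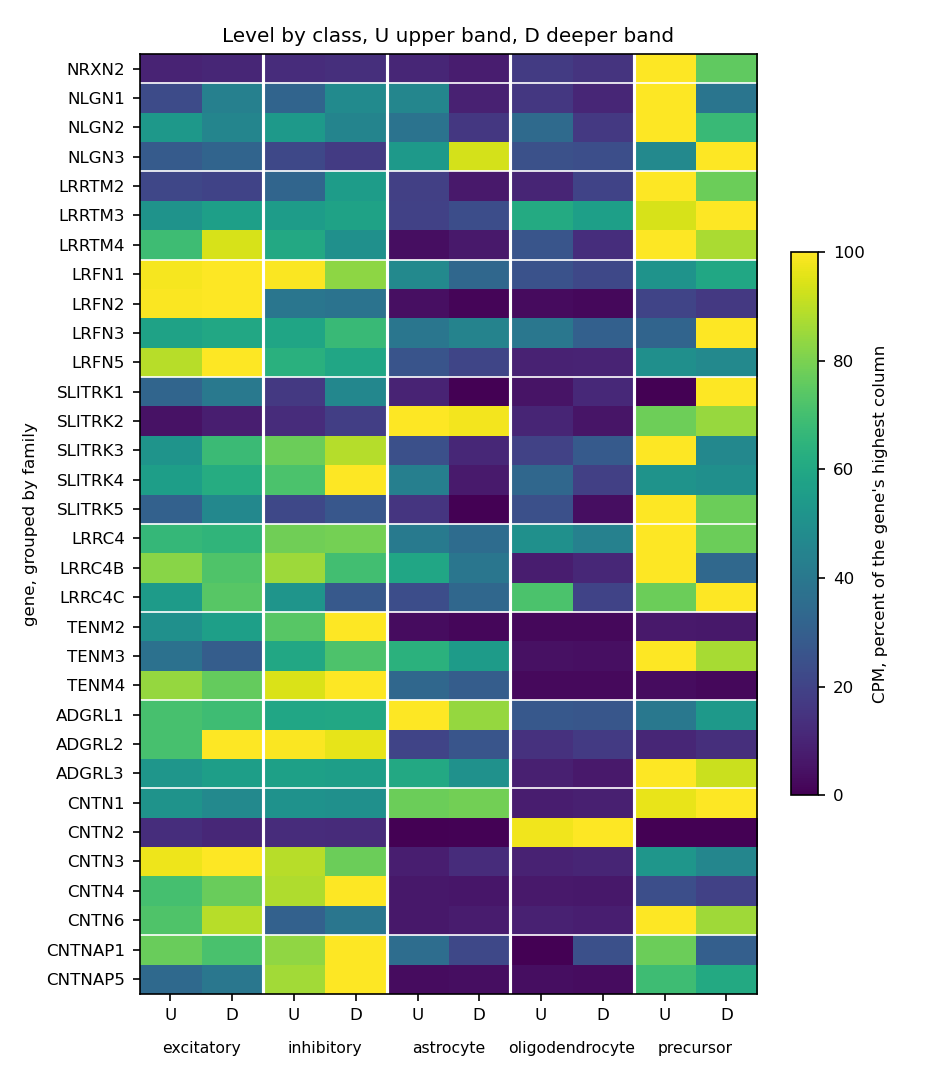
Levels of the 32 synaptic adhesion genes with at least 50 UMIs in the 5 best-covered classes, each library in its own column, as a percent of the gene's highest column. NRXN2 stands out in precursor-like nuclei, CNTN2 in oligodendrocyte-like nuclei and LRFN2 in excitatory nuclei, while genes such as SLITRK5 and NLGN1 rest on few UMIs.

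NRXN2, the neurexin measured, was at 1077 CPM (974 to 1188) in precursor-like nuclei of the upper-band library and 814 CPM (735 to 899) in those of the deeper-band library. Excitatory nuclei had 109 and 116 CPM, inhibitory nuclei 137 and 144, oligodendrocyte-like nuclei 189 and 160, and astrocyte-like nuclei 117 and 87.0. The precursor level was 5.71 and 5.08 times that of the second class, and the intervals of precursors and of every other class did not overlap in either library. A NRXN2 UMI was found in 93.6% and 82.9% of precursor-like nuclei, against 64.9% and 64.5% of excitatory nuclei, whose median depth was 10750.5 and 10404 UMIs against 2859 and 2363. After each nucleus was thinned to 1500 UMIs, which left out 6 and 8 precursor-like nuclei and 17 and 5 excitatory nuclei, the shares were 83.2% and 66.5% against 14.9% and 15.6%. The thinned share was 24.0% and 21.1% in oligodendrocyte-like nuclei, and no microglia-like nucleus of the 18 and 9 left held a NRXN2 UMI.

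The neuroligins, postsynaptic receptors of neurexins, were measured thinly. NLGN2, the neuroligin known from inhibitory synapses, was at 11.6 and 9.84 CPM in excitatory, 11.8 and 9.76 in inhibitory and 21.7 and 14.7 in precursor-like nuclei, the last on 8 and 7 UMIs. NLGN3 was higher in astrocyte-like nuclei than in excitatory nuclei, with 12.4 (6.96 to 20.5) and 21.6 (15.6 to 29.1) CPM against 6.61 (5.81 to 7.49) and 7.43 (6.59 to 8.35) CPM and with intervals that overlapped in the upper-band library and not in the deeper-band library. NLGN1, known from excitatory synapses, had 46 and 90 UMIs in excitatory nuclei, or 1.23 and 2.35 CPM, so that its class pattern was not resolved at this depth.

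LRRTM3, a neurexin ligand known from excitatory synapses, was found in glia as well as in neurons. It reached 1375 CPM (1258 to 1500) and 1466 CPM (1359 to 1579) in precursor-like nuclei, 897 and 827 in oligodendrocyte-like nuclei, 754 and 827 in excitatory nuclei and 812 and 844 in inhibitory nuclei, and was lowest among these 5 classes in astrocyte-like nuclei, at 282 and 348 CPM. Oligodendrocyte-like nuclei thus carried about as much LRRTM3 as neurons. Within them the level differed by cluster: it was 431 and 389 CPM in the cluster led by ENPP6 and ABCA9, 914 and 890 in the largest cluster and 1144 and 1074 in the remaining one. LRRTM2 and LRRTM4 were low everywhere, with 4.61 and 4.4 CPM of LRRTM2 and 15 and 20.4 CPM of LRRTM4 in excitatory nuclei. LRRTM1, LRRTM2 and LRRTM3 lie inside introns of alpha-catenin genes in mammals, and whether counting used strand is not given in the sources used here, so these values are uncertain.

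The LRFN genes, which encode SALM proteins that bind postsynaptic scaffolds, held the clearest excitatory member. LRFN2 was at 237 CPM (232 to 242) and 239 CPM (234 to 244) in excitatory nuclei, against 93.3 and 90.9 in inhibitory nuclei. Of the inhibitory subclasses described below, the CGE-like nuclei had 195 and 219 CPM and the MGE-like nuclei 50.4 and 38.3. Precursor-like nuclei had 48.8 and 40.0 CPM, astrocyte-like nuclei 9.95 and 3.52 and oligodendrocyte-like nuclei 6.64 and 5.54. LRFN5 followed the same order, with 584 and 656 CPM in excitatory, 415 and 387 in inhibitory, 326 and 309 in precursor-like and 62.9 and 65.9 in oligodendrocyte-like nuclei. LRFN1 and LRFN3 lay between 8.78 and 11.4 CPM in both neuron classes.

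Of the SLITRK genes, SLITRK4 was at 15.2 and 21.1 CPM in inhibitory nuclei and 11.8 and 13.1 in excitatory nuclei, and SLITRK3, a receptor known from inhibitory synapses, at 10.5 and 12 and at 7.01 and 9.26. SLITRK2 was the exception, with 17.4 CPM (10.8 to 26.6) and 17.1 CPM (11.8 to 23.9) in astrocyte-like nuclei and 13.6 and 14.7 in precursor-like nuclei, against 0.857 and 1.49 in excitatory nuclei. The astrocyte-like level rests on 21 and 34 UMIs, and its intervals lay above those of excitatory and inhibitory nuclei in both libraries. SLITRK1 and SLITRK5 had 2.73 and 3.40 CPM and 1.69 and 2.54 CPM in excitatory nuclei.

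Of the netrin-G ligands, LRRC4 differed least between classes: its CPM was 213 and 209 in excitatory, 251 and 253 in inhibitory, 320 and 248 in precursor-like, 160 and 141 in oligodendrocyte-like and 131 and 113 in astrocyte-like nuclei. LRRC4 lies inside SND1 in mammals, and SND1 was at 246 and 294 CPM in excitatory and 181 and 202 CPM in oligodendrocyte-like nuclei. The part of overlapping reads in the LRRC4 values was not tested. LRRC4B was at 35.7 and 31.5 CPM in excitatory, 37.1 and 30.3 in inhibitory and 3.54 and 4.77 in oligodendrocyte-like nuclei, and LRRC4C was below 11 CPM in each of the 5 best-covered classes.

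The 3 teneurins, large transmembrane proteins that bind latrophilins across the synapse, had different class patterns. TENM2 was neuronal, with 584 and 655 CPM in excitatory and 861 and 1164 CPM in inhibitory nuclei, and 19.1 to 81.4 CPM in astrocyte-like, oligodendrocyte-like and precursor-like nuclei. TENM4 was also high in both neuron classes, at 940 and 851 CPM and at 1055 and 1117 CPM, but it reached 375 and 329 CPM in astrocyte-like nuclei and was low in precursor-like nuclei, at 38.0 and 25.2 CPM. TENM3 showed the opposite order between the glial classes.

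TENM3 was highest among precursor-like nuclei, with 882 (788 to 983) and 768 (691 to 851) CPM, above astrocyte-like nuclei with 564 and 484, inhibitory nuclei with 528 and 637 and excitatory nuclei with 329 and 261. Microglia-like nuclei had 672 (506 to 875) and 587 (434 to 776) CPM, which overlaps the precursor level. In oligodendrocyte-like nuclei it was at 39.0 and 37.4 CPM. TENM3 and TENM4 were thus both low in oligodendrocyte-like nuclei, while precursor-like nuclei held TENM3 with little TENM4. Both were measured in astrocyte-like nuclei, where TENM4 did not stand clear of the neuron markers given below for free RNA.

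The latrophilins, adhesion G protein-coupled receptors for teneurins, spread over neurons and glia. ADGRL3 was at 822 CPM (732 to 920) and 755 CPM (679 to 838) in precursor-like nuclei, 495 and 415 in astrocyte-like nuclei, 433 and 461 in excitatory and 466 and 462 in inhibitory nuclei, and 72.2 and 57.3 in oligodendrocyte-like nuclei. ADGRL2 was at 212 and 298 CPM in excitatory, 297 and 287 in inhibitory and 349 and 393 in vascular-like nuclei, and below 79 CPM in the other 3 best-covered classes. In the upper-band library its vascular-like level did not stand clear of the neuron markers given below for free RNA. ADGRL1 was at 109 and 91.5 CPM in astrocyte-like nuclei and 77.0 and 75.0 in excitatory nuclei, with intervals that did not overlap.

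The contactins included the member with the sharpest class pattern. CNTN2, known as TAG-1 from the membrane beside the node of myelinated axons, was at 162 CPM (145 to 179) and 165 CPM (154 to 177) in oligodendrocyte-like nuclei, against 21.3 and 18.1 in excitatory and 20.9 and 20.2 in inhibitory nuclei, a ratio to the second class of 7.57 and 7.77. Precursor-like nuclei had no CNTN2 UMI in either library, which allows up to 8.14 and 6.31 CPM. Astrocyte-like nuclei had 0 and 2 UMIs, the former allowing up to 2.49 CPM.

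CNTN1 had nearly the reverse pattern. It was at 1999 and 2070 CPM in precursor-like and 1607 and 1631 in astrocyte-like nuclei, 1065 and 978 in excitatory and 1058 and 1040 in inhibitory nuclei, and 163 and 181 in oligodendrocyte-like nuclei. Within the oligodendrocyte-like nuclei both genes varied by cluster. The ENPP6 and ABCA9 cluster had the most CNTN2, at 225 and 199 CPM. It had the least CNTN1, at 87.0 and 126 CPM, on 22 and 147 UMIs. The cluster with the most LRRTM3 had 147 and 144 CPM of CNTN2 and 267 and 261 CPM of CNTN1. That cluster also had the most CNTN4 (136 and 115 CPM) and CNTNAP5 (117 and 103 CPM). In oligodendrocyte-like nuclei CNTN1, CNTN4 and CNTNAP5 lie within the range of neuron markers given below for free RNA. The part of free RNA in these cluster differences was not tested. Microglia-like nuclei also had CNTN1, at 1430 CPM (1183 to 1714) and 2228 CPM (1919 to 2572) on 117 and 186 UMIs.

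CNTN4 was at 1219 and 1383 CPM in inhibitory and 978 and 1068 CPM in excitatory nuclei, and CNTN3 at 327 and 283 and at 357 and 366. Both were under 100 CPM in astrocyte-like and oligodendrocyte-like nuclei. CNTN6 was at 209 and 256 CPM in excitatory, 89.6 and 113 in inhibitory and 288 and 246 in precursor-like nuclei, whose interval (204 to 295 in the deeper-band library) covers the excitatory level. CNTNAP5 was at 2275 and 2645 CPM in inhibitory nuclei, 1828 and 1609 in precursor-like nuclei and 902 and 1052 in excitatory nuclei, against 87.9 and 97.5 in astrocyte-like and 93.8 and 92.0 in oligodendrocyte-like nuclei. CNTNAP1, the axonal partner of CNTN1 beside the node, was at 5.41 and 5.0 CPM in excitatory and 5.83 and 6.99 CPM in inhibitory nuclei.

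**Figure D2:**
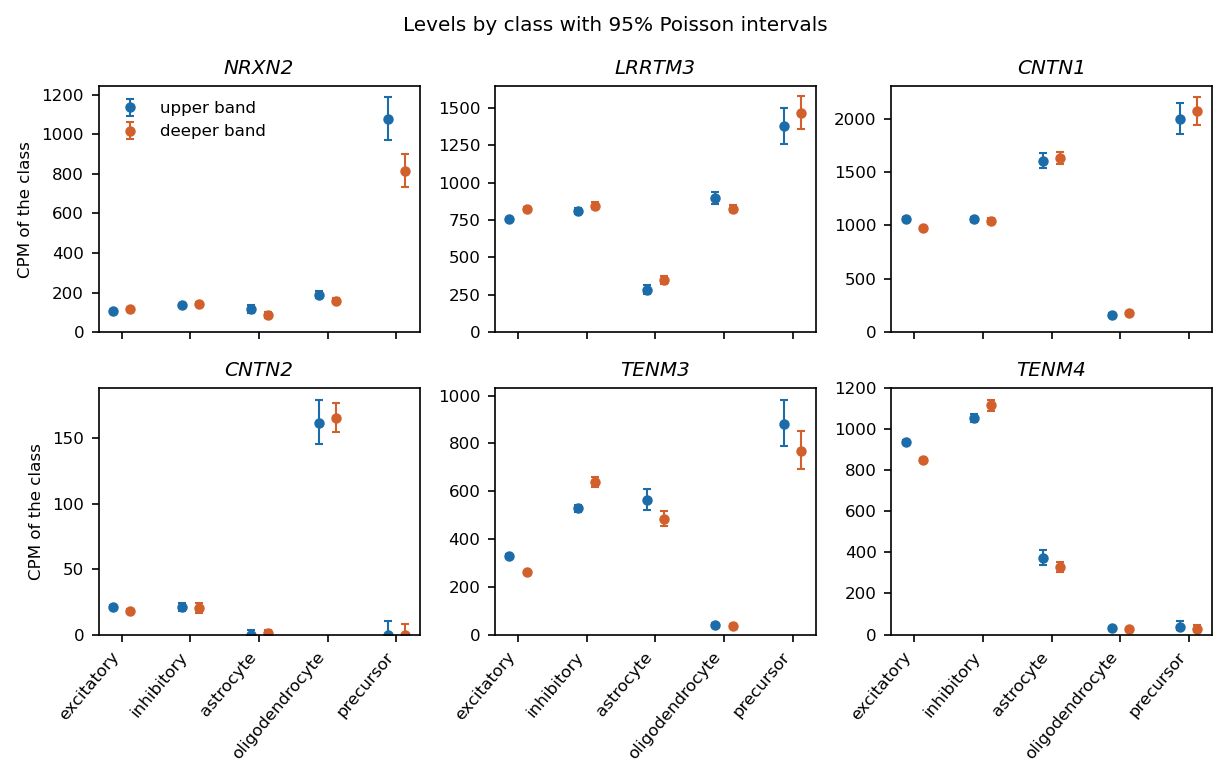
CPM of 6 genes in the 5 best-covered classes, with the upper-band library in blue and the deeper-band library in orange and bars for 95% Poisson intervals. NRXN2, LRRTM3, CNTN1 and TENM3 are highest in precursor-like nuclei, CNTN2 in oligodendrocyte-like nuclei (162 and 165 CPM), and TENM4 in neurons.

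Free RNA in droplets can add neuronal molecules to glial barcodes, so each glial level was set beside 14 neuron markers that had at least 500 UMIs in their own neuron class in each library. In oligodendrocyte-like nuclei these markers lay at a median of 8.17% and 6.03% of their neuronal level, from 2.12% for GAD1 to 78.7% for SLC17A7 in the upper-band library and from 2.13% for CAMK2A to 57.2% for SLC17A7 in the deeper-band library. As a percent of the higher of both neuron classes, TENM4 (2.89% and 2.46%), LRFN2 (2.80% and 2.32%), TENM2 (3.03% and 2.25%), CNTN4 (7.92% and 6.50%), CNTNAP5 (4.12% and 3.48%), CNTN1 (15.3% and 17.4%) and LRRC4 (63.8% and 55.6%) lay within that range in oligodendrocyte-like nuclei. The part of free RNA in these levels was not tested. LRRTM3 (111% and 97.9%), NRXN2 (138% and 111%) and CNTN2 (757% and 819%) lay above the highest marker in both libraries. NRGN, a marker with only 26 and 107 UMIs in excitatory nuclei and so not among the 14, was at 254% and 102%.

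In precursor-like nuclei the markers reached at most 80.2% (NEUROD6) and 63.5% (SLC17A7) of their neuronal level, and NRXN2, CNTN1, LRRTM3, TENM3 and ADGRL3 lay between 121% and 786% of their higher neuron class there. CNTNAP5, at 80.4% and 60.8%, did not stand clear of the marker range. NRGN was at 390% and 150%. In astrocyte-like nuclei the markers reached at most 77.5% and 42.2% (SLC17A7 in both libraries). As a percent of the excitatory level, TENM4 was at 39.9% and 38.7% there, within the marker range. TENM3 was at 171% and 186%, above it. For TENM3 the higher neuron class was the inhibitory nuclei, with 528 and 637 CPM. Against these, astrocyte-like nuclei were higher in the upper-band library (564 CPM) and lower in the deeper-band library (484 CPM). In microglia-like nuclei SLC17A7 reached 92.1% and 161%, and CNTN1 134% and 228%. In vascular-like nuclei the markers reached at most 153% and 94.99% (SLC17A7 in both libraries). ADGRL2 was there at 1.18 and 1.32 times its higher neuron class. This was within the marker range in the upper-band library and above it in the deeper-band library. The part of free RNA in the vascular-like ADGRL2 level was not tested.

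The neuron classes were then divided by marker genes. Excitatory subclusters with deep-layer markers (926 and 260 nuclei) were compared with those with upper-layer markers (1549 and 2773 nuclei) within each library. Of 30 members with at least 50 UMIs in both libraries, 5 were lower in the deep-layer-like nuclei in both libraries by at least 0.5 on the log2 scale with an interval clear of 0 (6.46% of all genes were), and 1 was higher (7.19% of all genes). CNTN6 differed most, with 59.9 and 61.1 CPM in deep-layer-like against 255 and 273 CPM in upper-layer-like nuclei, a log2 ratio of -2.09 and -2.16. ADGRL2 had 76.4 and 146 CPM against 249 and 311 (log2 ratio -1.70 and -1.09), CNTN3 179 and 202 against 433 and 390 (-1.28 and -0.95), CNTN4 530 and 669 against 1071 and 1056 (-1.02 and -0.66), and LRFN5 389 and 362 against 682 and 693 (-0.81 and -0.94).

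LRRTM2 was the member higher in deep-layer-like nuclei, with 6.63 and 7.15 CPM against 3.31 and 3.90, on 132 and 141 UMIs over both subclasses. Of the 5 lower genes, 3 are contactins. CNTN1 was on the other side, at 1127 and 1168 CPM against 1078 and 970 (log2 ratio 0.06 and 0.27).

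Inhibitory nuclei were divided into those with markers of the caudal ganglionic eminence (CGE-like, 332 and 289 nuclei) and of the medial ganglionic eminence (MGE-like, 673 and 442 nuclei), the embryonic sources of cortical interneurons. Of 24 members with enough UMIs, 2 were higher in CGE-like nuclei in both libraries (background 8.14%) and 4 were lower (background 8.55%). LRFN2 had the largest ratio, with 195 and 219 CPM in CGE-like against 50.4 and 38.3 CPM in MGE-like nuclei, a log2 ratio of 1.95 (1.74 to 2.16) and 2.52 (2.25 to 2.80). LRRTM4 followed at 18.6 and 15.2 against 10.4 and 8.06 CPM.

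The 4 members lower in CGE-like nuclei were 2 teneurins and 2 latrophilins. TENM2 had 544 and 745 CPM against 999 and 1398 in MGE-like nuclei (log2 ratio -0.88 and -0.91), TENM3 394 and 451 against 586 and 737 (-0.57 and -0.71), ADGRL2 166 and 144 against 356 and 358 (-1.10 and -1.31), and ADGRL3 355 and 340 against 515 and 526 (-0.54 and -0.63). TENM4 was below MGE-like nuclei in one library and above them in the other, at 934 and 1181 CPM against 1104 and 1094. The libraries differed more for CNTN4, at 1155 and 793 CPM against 1224 and 1612 (log2 ratio -0.08 and -1.02), and for CNTN6, at 97.8 and 58.6 CPM against 80.1 and 121 (0.29 and -1.05). CNTN1 and CNTNAP5 differed by no more than 0.07 on the log2 scale in either library.

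**Figure D3:**
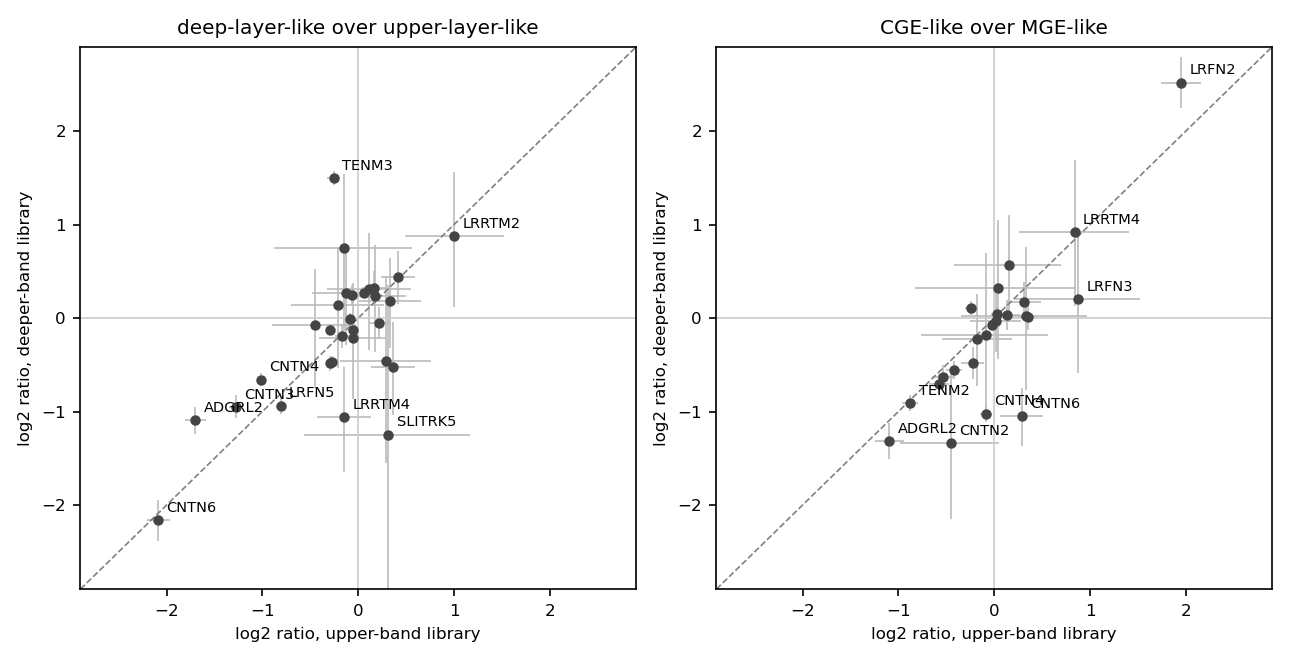
Log2 CPM ratio between neuron subclasses in the upper-band library (horizontal axis) and the deeper-band library (vertical axis) for the members with enough UMIs, with 95% counting intervals and the line of equal values dashed. Most genes lie near the line, and TENM3 lies far from it for layers, at -0.26 and 1.5.

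TENM3 and CNTN2 were the members whose layer ratio had opposite signs in the libraries with both intervals clear of 0. CNTN2 had 25.8 and 13.2 CPM in deep-layer-like nuclei, a log2 ratio to upper-layer-like nuclei of 0.36 (0.13 to 0.59) and -0.52 (-1.04 to -0.04). For TENM3, deep-layer-like nuclei had 271 CPM against 323 in upper-layer-like nuclei of the upper-band library, and 635 against 225 in the deeper-band library. A single deep-layer-like subcluster, led by GFRA1, TRPC7 and HTR4, had 1457 and 1634 CPM of TENM3 (73 and 86 nuclei) and made up 7.88% and 33.1% of the deep-layer-like nuclei. Without it, a comparison chosen after the values were seen, deep-layer-like nuclei had 190 and 168 CPM and the log2 ratio to upper-layer-like nuclei was -0.77 (-0.84 to -0.69) and -0.42 (-0.59 to -0.26). Since the subcluster was picked for its TENM3 level, leaving it out lowers the deep-layer-like value by construction.

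The same subcluster had the lowest TENM4 level of the 19 excitatory subclusters, 212 and 307 CPM, against a median of 841 CPM over subclusters. Over both libraries TENM3 there was 6.93 times its median subcluster (1558 against 225 CPM), the largest such ratio of any member in excitatory nuclei. TENM3 was lowest, at 64.4 CPM, in an upper-layer-like subcluster led by FSHR, PLCH1 and BBOX1.

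CNTN3 divided the 5 deep-layer-like subclusters: it was at 28.7, 33.6 and 23.7 CPM in those led by NXPH2, RXFP1 and KLHL14, but at 331 CPM in the GFRA1 and 521 CPM in the IQCA1L subcluster, over both libraries. CNTN6 was below its median of 207 CPM in all 5, from 20.4 to 134 CPM.

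Other members also peaked in single excitatory subclusters. CNTN3 reached 1614 and 1423 CPM and CNTNAP5 3092 and 2935 CPM in an upper-layer-like subcluster led by CDH20, RSPO3 and MME (29 and 18 nuclei), against subcluster medians of 309 and 977 CPM. TENM2 reached 1482 and 1667 CPM in a subcluster led by TMEM132C and TACR3 (56 and 25 nuclei), against a median of 576 CPM. LRRTM4 and SLITRK1 had their highest levels in different subclusters in the 2 libraries. The highest subcluster was the same in both libraries for 14 of the 29 members with at least 200 UMIs. An unnamed subcluster led by TLL1 and RGS12 (16 and 19 nuclei) held the highest level of 6 of the 29 and the lowest of 10. No share over all genes is given beside these counts. Of its lowest members, CNTNAP1 and LRRTM4 had 0 UMIs there in both libraries. CNTN2 and NLGN3 had 1 and 0, SLITRK3 0 and 1, LRFN3 and SLITRK4 0 and 2, and CNTN6 1 and 3. LRFN5 had 49 and 42 and LRRC4 24 and 26. Of its highest members, SLITRK1 rests on 2 and 1 UMIs and NLGN2 on 4 and 3. ADGRL3, CNTN4, LRFN2 and TENM4 rest on 89 to 491 per library. LRRC4 was the most even of the 29, with a highest subcluster only 1.18 times the median.

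**Figure D4:**
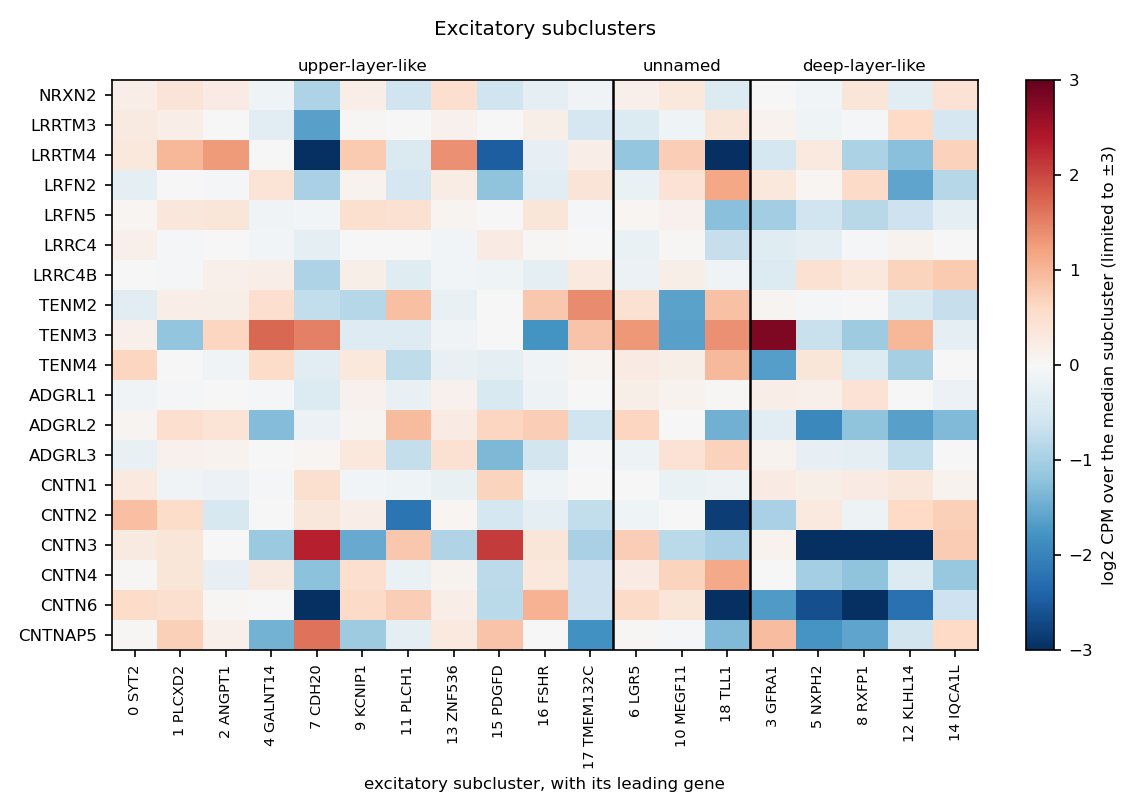
Log2 CPM over the median subcluster for members with at least 1000 UMIs in excitatory nuclei, over 19 subclusters grouped by layer markers and labelled with their leading gene, both libraries together. TENM3 is red and TENM4 blue in the GFRA1 subcluster, CNTN6 is blue in all 5 deep-layer-like subclusters and CNTN3 in 3 of them, and LRRC4 varies little.

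In inhibitory nuclei LRFN2 had the largest ratio of highest to median subcluster, 6.84, with 420 and 421 CPM in a CGE-like subcluster led by PDYN and MYLK (35 and 69 nuclei) against a median of 61.5 CPM. CNTN6 reached 337 and 298 CPM and CNTNAP5 5226 and 4941 CPM in an unnamed subcluster led by UNC5B and EYA1 (16 and 34 nuclei), against medians of 59.4 and 2151 CPM. CNTN3 reached 812 and 832 CPM in an MGE-like subcluster led by TAC1, ADGRL2 621 and 615 CPM in one led by GLI2 and ADAMTS5, and CNTN4 2483 and 2516 CPM in one led by TFCP2L1 and TOX.

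An MGE-like subcluster was led by CHODL, CDH1 and NOS1, of which CHODL and NOS1 are known from long-range projecting interneurons. It was singled out after its values were seen. It held the lowest level of 7 of the 19 inhibitory members with at least 200 UMIs. No share over all genes is given beside this count, so it is not read as a trait of the members. ADGRL2 was at 3.73 CPM there against a subcluster median of 215 CPM, CNTN3 at 11.2 against 212 CPM and LRRTM3 at 119 against 777 CPM. NRXN2 was at 265 and 207 CPM there against a median of 133 over both libraries, its highest subcluster in the upper-band library but not in the deeper-band library. The subcluster held 22 and 12 nuclei. The highest subcluster was the same in both libraries for 6 of the 19, again without a share over all genes.

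Between bands, few members passed the size rule within a whole class, and some well-covered members passed it within a neuron subclass. In excitatory nuclei, where 32 members had at least 50 UMIs, 3 were higher in the deeper band by at least 0.5 on the log2 scale with an interval clear of 0 (background 4.99%) and 0 were lower (background 8.49%). They were NLGN1 at 1.23 and 2.35 CPM (log2 ratio 0.94, 0.41 to 1.48, on 46 and 90 UMIs), SLITRK2 at 0.857 and 1.49 CPM (0.80, 0.15 to 1.47, on 32 and 57 UMIs) and SLITRK5 at 1.69 and 2.54 CPM (0.59, 0.12 to 1.07, on 63 and 97 UMIs). With subclusters at equal weight in both libraries the count was 1, NLGN1, at 0.64 (0.03 to 1.26). The median log2 ratio of the 32 was 0.11, beside -0.03 over all genes tested.

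In inhibitory nuclei, LRRTM2 was higher in the deeper band, at 7.11 and 12 CPM (log2 ratio 0.76, 0.25 to 1.27), and LRRC4C lower, at 5.48 and 2.93 CPM (-0.90, -1.78 to -0.09), of 28 members (backgrounds 3.85% and 3.49%). In astrocyte-like nuclei, CNTN3 was higher, at 30.7 and 45.7 CPM (0.58, 0.01 to 1.17), and TENM2 lower, at 38.2 and 19.1 CPM (-1.0, -1.66 to -0.35), of 18 members (backgrounds 4.19% and 3.74%). No member passed in oligodendrocyte-like nuclei (16 members, backgrounds 4.03% and 3%) or in precursor-like nuclei (12 members, backgrounds 3.35% and 3.21%). All 7 of these differences rest on fewer than 200 UMIs, and no member passed in any whole class when 200 UMIs were asked for. The astrocyte-like levels of TENM2 and CNTN3 lie within the range of neuron markers there.

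Among members with at least 1000 UMIs, ADGRL2 in excitatory nuclei came closest to the size rule, at 212 and 298 CPM (log2 ratio 0.49, 0.45 to 0.54). TENM2 in inhibitory nuclei had 861 and 1164 CPM (0.43, 0.39 to 0.48). TENM3 was lower in the deeper band in excitatory nuclei (log2 ratio -0.33, -0.37 to -0.30) and higher in inhibitory nuclei (0.27, 0.21 to 0.33). With fewer than 1000 UMIs, NRXN2 was lower in the deeper band in precursor-like nuclei (-0.40, -0.61 to -0.20, on 397 and 387 UMIs). It was also lower in astrocyte-like nuclei (-0.43, -0.76 to -0.10, on 141 and 173 UMIs).

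Within neuron subclasses the largest band difference among members with enough UMIs was that of TENM3 in deep-layer-like nuclei. There TENM3 was higher in the deeper band, at 271 and 635 CPM (log2 ratio 1.23, 1.14 to 1.32), as was ADGRL2, at 76.4 and 146 CPM (0.93, 0.76 to 1.11), while CNTN2 was lower, at 25.8 and 13.2 CPM (-0.96, -1.50 to -0.46), and LRRTM4 lower on 164 and 29 UMIs (-0.58, -1.21 to -0.01). These are 2 higher and 2 lower of 28 members (backgrounds 5.79% and 4.8%). In upper-layer-like nuclei TENM3 went the other way, at 323 and 225 CPM (-0.52, -0.57 to -0.47). There NLGN1 (1.07, 0.35 to 1.85) and SLITRK5 (0.67, 0.05 to 1.33) were higher on fewer than 200 UMIs each. These are 2 higher and 1 lower of 32 members (backgrounds 3.84% and 5.55%). The GFRA1 subcluster, with 1457 and 1634 CPM of TENM3, made up 7.88% and 33.1% of the deep-layer-like nuclei. The remaining deep-layer-like nuclei held 190 and 168 CPM of TENM3, so the rise was not seen among them. Their ADGRL2 level was 71.5 and 116 CPM. This subcluster was picked for its TENM3 level, and the part of make-up in the deep-layer-like band ratios was not tested.

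In MGE-like nuclei CNTN6 was higher in the deeper band, at 80.1 and 121 CPM (0.60, 0.41 to 0.79), and LRRTM2 was higher on 42 and 45 UMIs (2 higher and 0 lower of 26 members, backgrounds 3.81% and 4.2%). In CGE-like nuclei CNTN6 was lower, at 97.8 and 58.6 CPM (-0.74, -1.08 to -0.41), as was CNTN4, at 1155 and 793 CPM (-0.54, -0.63 to -0.45), and SLITRK4 was higher on 42 and 51 UMIs (1 higher and 2 lower of 22 members, backgrounds 5.02% and 3.59%). CNTN6 thus differed between bands in opposite directions in the 2 inhibitory subclasses, a difference that was not tested. The make-up of the subclasses differed too. An MGE-like subcluster led by PTPN14 and GADL1, with 215 CPM of CNTN6 over both libraries, held 108 of 673 and 135 of 442 MGE-like nuclei. The part of make-up in the CNTN6 ratios was not tested.

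The libraries also differed in the make-up of the neuron classes, as given above for layers. With subclusters at equal weight, the log2 ratio in excitatory nuclei became 0.15 (0.10 to 0.19) for ADGRL2, 0.07 for TENM3 instead of -0.33, -0.06 for CNTN6 instead of 0.30, -0.07 for CNTNAP5 instead of 0.22 and -0.00 for LRRTM4 instead of 0.44. Of 19 excitatory members with at least 1000 UMIs, 16 lay closer to 0 under equal weights, and the median size of the log2 ratio went from 0.14 to 0.06. No share over all genes is given beside this count, so it is not read as particular to the members. TENM2 kept its ratio of 0.17 in excitatory nuclei. In inhibitory nuclei, CNTNAP5 went from 0.22 to -0.08, CNTN6 from 0.33 to -0.12 and TENM2 from 0.43 to 0.24 (0.19 to 0.29).

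**Figure D5:**
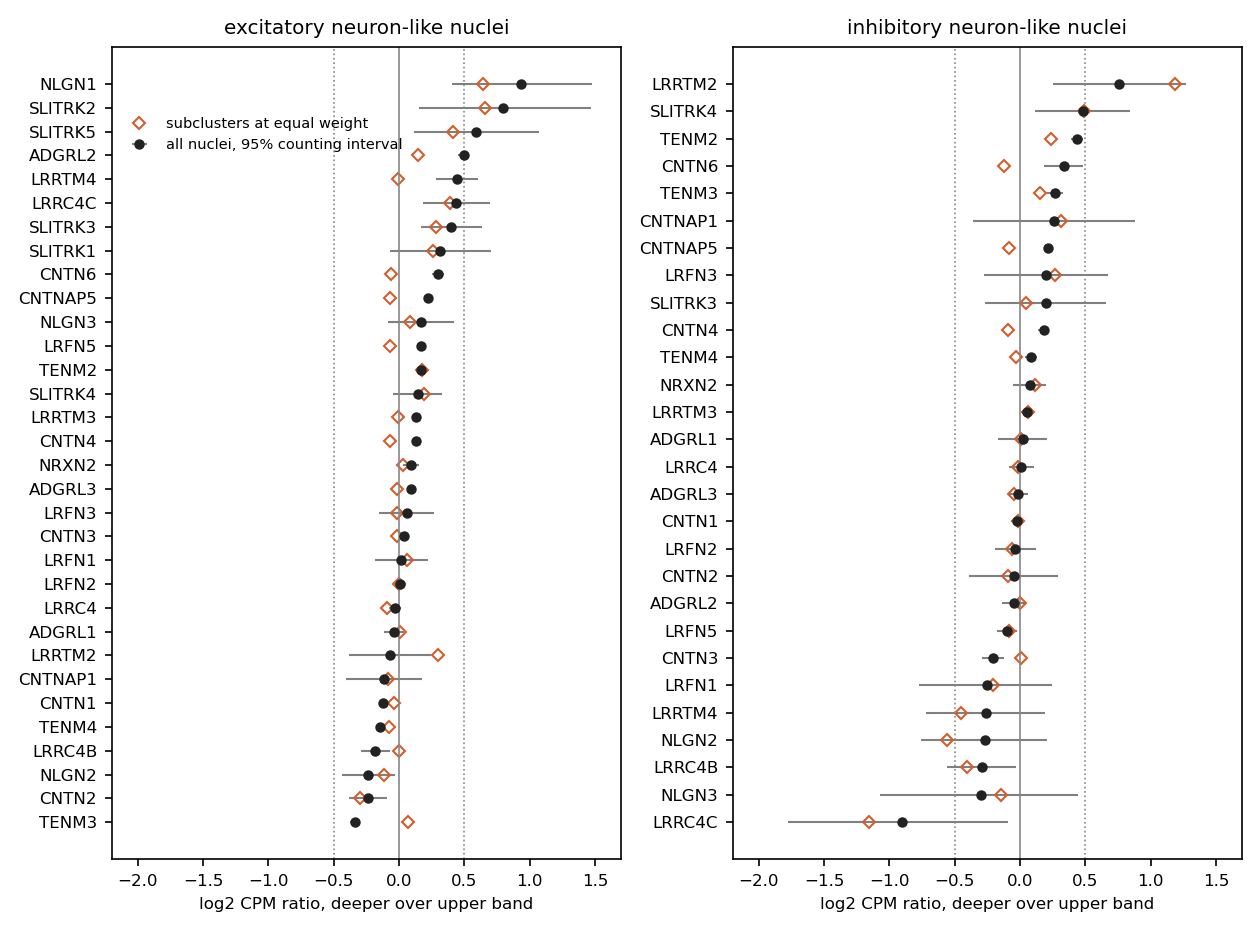
Log2 CPM ratio of deeper over upper band for each member with at least 50 UMIs in excitatory and inhibitory nuclei, over all nuclei (black, with 95% counting intervals) and with subclusters at equal weight (orange diamonds). Dotted lines mark the size of 0.5, and abundant genes such as ADGRL2, CNTN6 and TENM3 move toward 0 under equal weights while the genes past 0.5 have wide intervals.

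Of 45 listed partner genes of these proteins (secreted neurexin ligands, receptor phosphatases, SynCAMs, scaffolds and nodal proteins), 43 were measured. In excitatory nuclei 37 had enough UMIs. MDGA1, a membrane protein that blocks neuroligins, was higher in the deeper band, at 7.36 and 15.6 CPM (log2 ratio 1.08, 0.87 to 1.29), as was GPC4, at 2.03 and 3.14 CPM (0.63, 0.20 to 1.06). NXPH2, a secreted neurexin ligand, was lower, at 138 and 30.0 CPM (-2.2, -2.29 to -2.10), and it is the leading gene of a deep-layer-like subcluster that held 376 and 51 nuclei. MDGA1 is among the leading genes of an excitatory cluster that held 203 and 991 nuclei. The part of class make-up in these ratios was not tested.

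In inhibitory nuclei 2 of 32 partners were higher in the deeper band: CBLN4, a secreted adaptor of neurexins, at 3.96 and 11.2 CPM (1.5, 0.89 to 2.14), and CADM4 at 4.55 and 8.95 CPM (0.98, 0.36 to 1.61). CBLN4 is the leading gene of an MGE-like subcluster that held 54 and 73 nuclei. In precursor-like nuclei 1 of 18 was lower, the scaffold gene SHANK2, at 163 and 86.3 CPM (-0.92, -1.53 to -0.32). None of 23 partners in astrocyte-like or 25 in oligodendrocyte-like nuclei passed. The backgrounds are those given for the members in whole classes.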

How the data were processed

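The authors deposited whole-number UMI counts per gene and barcode for both libraries, as matrices without normalization, per the file headers. The submitters' processing notes name Cell Ranger 6.2.1 and 2.1.1, and the header names software version 3.1.0. Aligner, genome build, annotation, treatment of intronic reads and strand are not given in the sources used here, so no coordinates are printed. Genes were matched by the symbols in the deposited feature tables.

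Barcodes with at least 500 genes were kept (7091 of 7151 and 9608 of 9694). Scrublet removed 830 (11.7%) and 1458 (15.2%) as doublets, against 5.67% and 7.69% expected, leaving medians of 7992 and 4887.5 UMIs per nucleus. Both libraries were clustered together (scanpy 1.11.5, 2000 variable genes without the members, 30 principal components, 15 neighbours, Leiden resolution 1), and neuron classes were clustered again. A class needed at least 3 raised markers (1/3 of the highest cluster, 10% of nuclei); this scoring rule was set after clusters had been seen, and names mean resemblance. Of 27 clusters, 25 were named. In 3 of 19 excitatory and 2 of 22 inhibitory subclusters no subclass was named. Free RNA was not corrected.

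UMIs were summed per class and library and divided by the class total (CPM). Levels carry exact Poisson intervals and ratios exact conditional binomial intervals (equal-weight ratios approximate ones). Band ratios needed 50 UMIs over both libraries and subclass ratios 50 in each library; a gene passed at a size of 0.5 with an interval clear of 0. The same rule over all genes gave the backgrounds. These functions were tested on simulated data. Named genes are the best-known family members, those at least 2 times the second class, those past the band rule, and up to 6 per neuron class with the largest ratio of highest to median subcluster; others are given by family. Members and lists were chosen with earlier results of these data known.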

Additional observations from a re-analysis of the deposited data

Results flagged for a closer look

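In several genes the band ratio (log2 CPM, deeper over upper band) had opposite signs in 2 classes, with both counting intervals clear of 0. The genes below are not a full list. TENM4, for example, was at -0.14 (-0.17 to -0.12) in excitatory and 0.08 (0.04 to 0.13) in inhibitory nuclei. TENM3 was at -0.33 (-0.37 to -0.30) in excitatory nuclei and 0.27 (0.21 to 0.33) in inhibitory nuclei. LRRC4C was at 0.44 (0.18 to 0.70) in excitatory and -0.90 (-1.78 to -0.09) in inhibitory nuclei. NRXN2 was at 0.093 (0.03 to 0.16) in excitatory and -0.43 (-0.76 to -0.10) in astrocyte-like nuclei. TENM2 was at 0.17 (0.14 to 0.19) in excitatory and 0.43 (0.39 to 0.48) in inhibitory nuclei but -1.0 (-1.66 to -0.35) in astrocyte-like nuclei. CNTN3 was at -0.21 (-0.29 to -0.12) in inhibitory and 0.58 (0.01 to 1.17) in astrocyte-like nuclei. As given above, the astrocyte-like levels of TENM2 and CNTN3 lie within the range of neuron markers. With subclusters at equal weight, TENM3 in excitatory nuclei was at 0.07 (0.02 to 0.11), CNTN3 in inhibitory nuclei at 0.01 (-0.09 to 0.10) and NRXN2 in excitatory nuclei at 0.03 (-0.04 to 0.11), so that these opposite signs were no longer seen with intervals clear of 0.

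In other genes the ratio between neuron subclasses had opposite signs in the 2 libraries. For deep-layer-like over upper-layer-like nuclei, TENM3 was at -0.26 (-0.32 to -0.19) in the upper-band library and 1.5 (1.42 to 1.57) in the deeper-band library, and CNTN2 at 0.36 (0.13 to 0.59) and -0.52 (-1.04 to -0.04). For CGE-like over MGE-like nuclei, CNTN6 was at 0.29 (0.06 to 0.51) and -1.05 (-1.36 to -0.75). With 1 library per band, none of these differences was tested.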

How the results depend on the processing

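No paired analysis was possible because each band has 1 library, and for the same reason no library could be left out. Of the counts of members recomputed under the alternatives, 161 stayed within 1.5 times of the reported count and 23 did not. The counts by class of highest level all stayed within it, also without the microglia-like and vascular-like classes, an alternative chosen after seeing the data. With at least 200 UMIs, or a size of 1, the counts were 0 higher in excitatory nuclei, 0 higher and 0 lower in inhibitory nuclei and 0 higher and 0 lower in astrocyte-like nuclei. With at least 10 UMIs they were 2 higher in inhibitory nuclei and 3, 2 and 1 lower in astrocyte-like, oligodendrocyte-like and precursor-like nuclei. With subclusters at equal weight, 1 was higher in excitatory and 2 were lower in inhibitory nuclei. Without doublet removal, 0 were lower in inhibitory and 0 higher in astrocyte-like nuclei. With nuclei thinned to 1500 UMIs, 0 were higher in either. With the mean CPM of nuclei, 2 were lower in astrocyte-like nuclei. In oligodendrocyte-like nuclei, 2 were lower at a resolution of 2 and 1 with each library clustered on its own. The cause of these changes was not tested, beyond the smaller or larger number of genes that the UMI minimum admits. The 7 genes past the band rule kept their sign under 11 alternatives each, with the widest range, 0.55 to 1.19, for LRRTM2. Median-of-ratios scaling moved all genes by at most 0.03.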
